A study of Mus musculus with 14 samples.

Results

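The nuclear-encoded genes of the respiratory chain and ATP synthase were followed in mouse embryonic stem cells (ESCs) of 2 genotypes in 2 media. A protein-coding gene of the RNA-seq table was taken as a member when its symbol began with Nduf, Uqcr, Atp5 or Cox4 to Cox8, or was Sdha, Sdhb, Sdhc, Sdhd, Cyc1 or Cycs, and when its mean over the 8 samples was above 0.2 FPKM (fragments per kilobase of transcript and of library size, a level per transcript length). Of 93 genes with such symbols, 90 passed this filter, out of 15430 genes that passed it in all. The lowest member was Cox4i2 at a mean of 0.678 FPKM. The 3 genes that fell below the filter were Cox8c at 0.116, Cox6a2 at 0.0706 and Cox8b at 0 FPKM. Cox4i1, Ndufb1 and Ndufaf8 were not analysed here. By complex, 44 members belong to complex I, 4 to complex II, 9 to complex III, 1 is cytochrome c, 16 belong to complex IV and 16 to complex V.

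Poly(A) RNA was sequenced from wild-type ESCs and from Trincr1-/- ESCs, in which exons 2 to 4 of the long noncoding RNA gene Trincr1 (Gm2694) had been removed with a pair of guide RNAs, with 2 samples in each of 4 groups. The medium named 2i + LIF held the MEK inhibitor PD0325901 at 1.0 µM, the GSK3 inhibitor CHIR99021 at 3.0 µM and leukemia inhibitory factor (LIF) at 1000 units/ml. For PD + LIF, an initial 24 h in 2i + LIF after plating was followed by 4 days without CHIR99021, with PD0325901 and LIF at the same doses, so PD0325901 and LIF were present in every group. In a second experiment, in 2i + LIF, RNA bound to FLAG-tagged TRIM71, an RNA-binding protein that associates with Trincr1, was pulled down from ESCs that overexpressed it and was sequenced next to input RNA. Whether the 2 samples of a group came from separate clones or cultures is not stated in the sources used here, so p-values measure the spread between these samples, which may be technical. How long the 2i + LIF cells had been plated is not stated either, so the absence of CHIR99021 and the days since plating cannot be told apart.

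The respiratory chain sits in the inner mitochondrial membrane. Complexes I and II pass electrons from NADH and succinate to ubiquinone, complex III passes them to cytochrome c, and complex IV passes them to oxygen. Complexes I, III and IV pump protons, and complex V, the ATP synthase, uses the returning protons to make ATP. Pluripotent cells rely on both glycolysis and respiration, and mouse ESCs respire more than cells of the later, primed epiblast state. A small set of core subunits, which includes all subunits made from mitochondrial DNA, carries out the chemistry, and accessory subunits made from nuclear genes surround it.

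The libraries were of similar size. Steps between low FPKM values placed the depth per sample at 9.1 to 12.4, in units of 1e6 fragments, an estimate that rests on annotated exon lengths, and 1 fragment on a transcript of 1000 bases was worth 0.0806 to 0.11 FPKM. Trincr1 itself stood at 5.70 and 9.45 FPKM in wild type and at 0.0754 and 0 FPKM in Trincr1-/- in 2i + LIF, and at 6.18 and 6.56 against 1.38 and 0.746 FPKM in PD + LIF, so it was lower in all Trincr1-/- samples than in all wild-type samples. The labelled cell type was checked with 10 ESC markers, whose summed level was 3853 and 3972 FPKM in wild type in 2i + LIF, 3697 and 3740 in Trincr1-/- in 2i + LIF, 3239 and 2938 in wild type in PD + LIF, and 1963 and 2165 in Trincr1-/- in PD + LIF. Most of the difference between genotypes in this sum in PD + LIF came from Dppa5a. It stood there at 1910 and 1597 FPKM in wild type and at 820 and 1024 FPKM in Trincr1-/-. The 8 feeder fibroblast markers summed to no more than 6.40 FPKM in any sample. Of the 3 that passed the filter on low values, Col1a1 and Thy1 were higher in PD + LIF in wild type, and these and Col1a2 in Trincr1-/- (Thy1 at 3.00 and 3.75 FPKM in wild type), while Dcn was at 0 in 7 of 8 samples. In these bulk samples, fewer cells of a type and less RNA per cell cannot be told apart.

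The members were among the most abundant messages of these cells. Their median level was 112.7 FPKM, against 8.68 FPKM over 13330 protein-coding genes that passed the filter, and together they made up 2.89 to 2.94% of all FPKM in 2i + LIF and 2.37 to 2.52% in PD + LIF. The median was 65.4 FPKM in complex I, 83.2 in complex II, 182 in complex III, 204 in complex IV and 204 in complex V. Atp5b, the catalytic beta subunit of the F1 part of ATP synthase, was the highest at a mean of 1409 FPKM. The highest members of complexes I to IV were Ndufa7 at 270.0, Sdha at 142.6, Uqcr10 at 313.5 and Cox7c at 430.9 FPKM. The 8 complex I assembly factors, proteins that help to build the complex and then leave it, were much lower, from 9.24 to 33.1 FPKM. The lowest members were Ndufaf7 for complex I, Sdhc for complex II at 74.2, Uqcrfs1, the Rieske iron-sulfur protein, for complex III at 69.5, and Atp5s, a factor B protein, for complex V at 3.08 FPKM. Members reproduced more tightly than all genes tested, with a median difference between the 2 samples of a group of 0.0484 to 0.0688 on the log2 scale, against 0.102 to 0.111. The genes were not matched for level here, so the high level of the members and other traits cannot be told apart.

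Promoter windows are shown for the 3 ATP synthase subunit c paralogs, which moved in opposite directions between media, for Cycs, and for Cox6b2 and Cox7a2l, which rose where most members fell. RefSeq (build GRCm38.p6) gave a window for 76 members, and the 250 bases before the RefSeq start site were used. For Atp5g2 this window lies inside the locus of the quantified gene, chr15:102662863-102672352, so other start sites may be in use. Capitals mark matches, on either strand, to the motifs searched in these windows. The windows lie at chr11:96075632-96075881, minus strand (Atp5g1), chr15:102671048-102671297, minus strand (Atp5g2), chr2:73911327-73911576, minus strand (Atp5g3), chr6:50566570-50566819, minus strand (Cycs), chr7:4753095-4753344, minus strand (Cox6b2) and chr17:83514334-83514583, minus strand (Cox7a2l), each written 5′ to 3′ along the gene.
Atp5g1: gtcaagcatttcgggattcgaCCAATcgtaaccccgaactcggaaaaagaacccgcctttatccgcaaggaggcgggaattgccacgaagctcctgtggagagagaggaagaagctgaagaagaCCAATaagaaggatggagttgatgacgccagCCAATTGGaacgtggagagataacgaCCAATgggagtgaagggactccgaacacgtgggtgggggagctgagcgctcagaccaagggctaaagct
Atp5g2: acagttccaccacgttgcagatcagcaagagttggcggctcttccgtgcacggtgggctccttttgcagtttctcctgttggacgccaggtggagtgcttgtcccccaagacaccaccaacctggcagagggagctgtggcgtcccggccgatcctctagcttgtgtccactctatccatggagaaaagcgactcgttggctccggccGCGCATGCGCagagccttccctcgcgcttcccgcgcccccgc
Atp5g3: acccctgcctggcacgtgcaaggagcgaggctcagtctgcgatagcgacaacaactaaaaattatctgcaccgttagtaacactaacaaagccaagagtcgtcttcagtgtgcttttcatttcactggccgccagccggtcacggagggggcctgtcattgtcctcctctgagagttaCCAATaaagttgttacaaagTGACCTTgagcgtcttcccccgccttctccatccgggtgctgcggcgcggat
Cycs: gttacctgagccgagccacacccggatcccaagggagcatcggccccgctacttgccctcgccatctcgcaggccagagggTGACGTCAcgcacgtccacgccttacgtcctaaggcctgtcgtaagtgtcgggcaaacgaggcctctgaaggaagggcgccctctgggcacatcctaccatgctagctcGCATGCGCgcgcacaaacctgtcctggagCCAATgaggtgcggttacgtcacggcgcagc
Cox6b2: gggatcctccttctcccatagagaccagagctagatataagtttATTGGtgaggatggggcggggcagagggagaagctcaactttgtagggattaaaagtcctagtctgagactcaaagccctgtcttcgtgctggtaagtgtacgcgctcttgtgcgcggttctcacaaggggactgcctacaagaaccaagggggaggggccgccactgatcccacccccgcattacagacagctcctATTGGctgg
Cox7a2l: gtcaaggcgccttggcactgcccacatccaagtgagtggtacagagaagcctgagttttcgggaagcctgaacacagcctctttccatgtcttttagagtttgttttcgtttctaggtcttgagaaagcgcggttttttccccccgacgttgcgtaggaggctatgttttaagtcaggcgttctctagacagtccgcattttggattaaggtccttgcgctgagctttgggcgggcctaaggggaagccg

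Of the 76 windows, 10 (13.2%) held the core NRF1 motif GCATGCGC, against 2.32% of 27025 RefSeq promoter windows of the same length. The 27025 windows, 1 per gene, were not matched to the members in expression or base composition. A difference in share may therefore reflect these traits, which was not tested. NRF1 is a long-known activator of respiratory chain genes. The CREB and ATF motif TGACGTCA was in 6.58% of member windows and 1.62% of all windows, the motif AAGGTCA of estrogen-related receptors in 6.58% and 4.05%, the ETS and GABP motif CCGGAAGT in 3.95% and 2.93%, and CCAAT, bound by NF-Y, in 46.1% and 34.5%. The hypoxia response motif was searched only as TACGTG, which was in 1.32% of member windows and 2.68% of all windows. Its other forms were not searched. No member window held the TCF/LEF motif CTTTGAT or the YY1 motif AAGATGGC, which were in 3.23% and 1.59% of all windows. At such shares few matches would be met in 76 windows, and bases after the start site were not searched. The windows of Cycs and Atp5g2 held the NRF1 motif, that of Atp5g3 the receptor motif, and that of Atp5g1 CCAAT or its complement 5 times, of which 1 pair overlaps. Of 45 windows of members that were lower in PD + LIF in both genotypes, 5 held the NRF1 motif, as did 2 of 9 windows of members that were higher in either genotype. A match is a run of letters and shows no binding.

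The first comparison asked how the members differed between media in wild-type ESCs. Most fell in PD + LIF. The summed level of all members was 14997 and 15258 FPKM in 2i + LIF and 12501 and 12831 FPKM in PD + LIF, so the PD + LIF mean was 83.7% of the 2i + LIF mean. In limma, 57 of 90 members were lower and 11 higher (adjusted p under 0.05), where 21.3% of all tested genes were lower and 30.9% higher. The median log2 change was -0.23 over members and +0.08 over all genes tested. Among the 1679 most abundant protein-coding genes (mean over 50 FPKM), 48.6% were lower and 21.6% higher, against 67.2% and 10.4% of the 67 members at that level. Quantile normalization, which lowers the median change of all genes by 0.0992, gave 39 lower and 14 higher, a smaller excess of falls, with a member median of -0.12.

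In Trincr1-/- ESCs the same comparison of media, on other samples, gave 61 lower and 8 higher of 90 members, where 20.3% of all genes were lower and 29.6% higher. Among the 1679 protein-coding genes with a mean over 50 FPKM, 44.1% were lower and 20.0% higher. Of the 67 members at that level, 74.6% were lower and 4.48% higher. The summed level was 14716 and 15145 FPKM in 2i + LIF and 11951 and 11986 FPKM in PD + LIF, or 80.2% of the 2i + LIF mean. Across genotypes, 53 members were lower in both, 6 were higher in both, 12 were called in neither, and 0 were called in opposite directions. Quantile normalization gave 51 lower and 9 higher here.

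**Figure D1:**
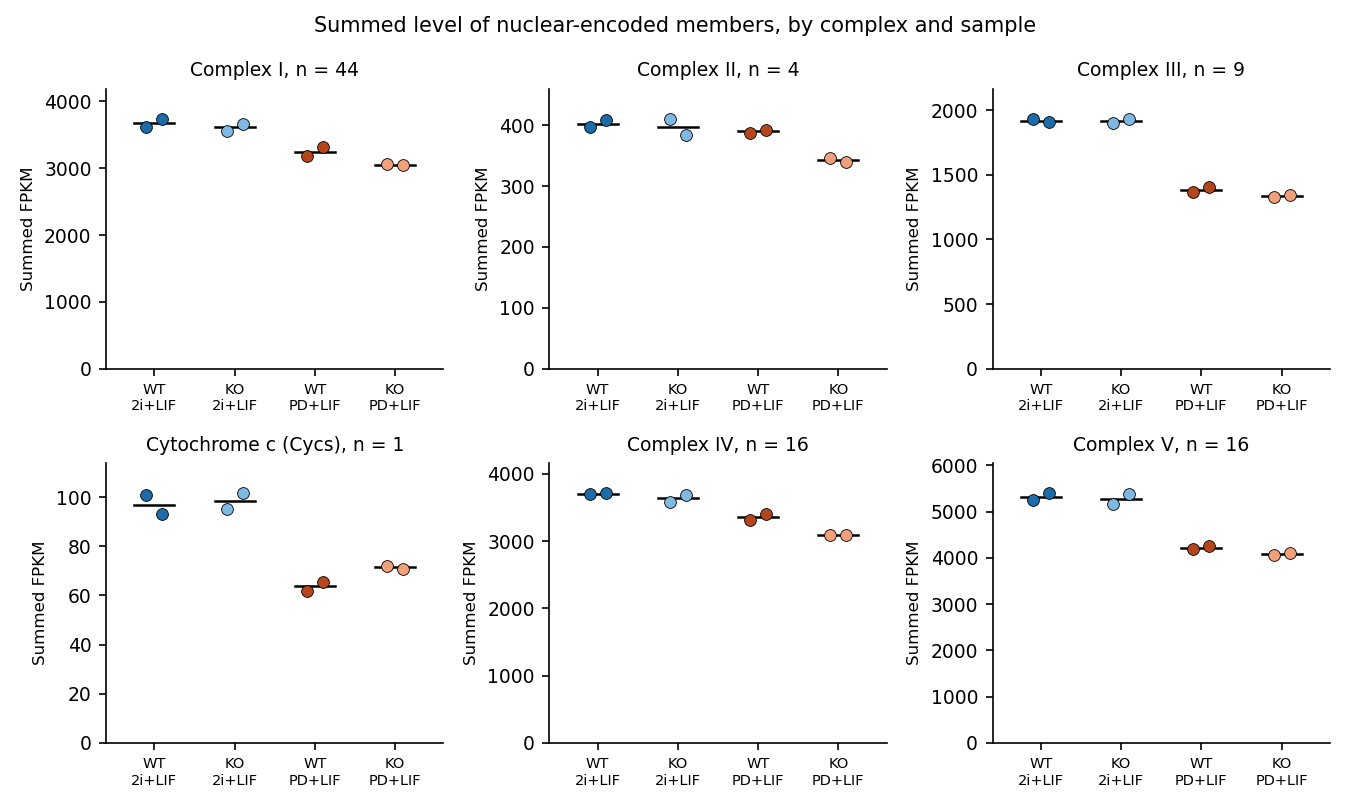
Summed FPKM of the members of each complex in every sample (y axis, from 0) for wild type (WT) and Trincr1-/- (KO) in each medium; points are samples and bars are means of 2. Complexes I, III, IV and V and cytochrome c stood lower in all PD + LIF samples than in all 2i + LIF samples, and complex II, which overlapped between media, was lowest in the Trincr1-/- PD + LIF samples, at 346 and 340 FPKM.

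The size of the fall differed by complex in the summed levels. In wild type, complex III stood in PD + LIF at 72.2% of its 2i + LIF sum, complex V at 79.3%, complex I at 88.3%, complex IV at 90.7% and complex II at 96.8%. In Trincr1-/- ESCs the corresponding values were 69.7%, 77.4%, 84.5%, 84.9% and 86.3%. The order of these 5 was the same in both genotypes, although complexes I and IV were nearly level in Trincr1-/-. These sums weight each member by its level and carry no test. The 75 structural subunits with cytochrome c were mostly lower in wild type, 52 of them, with 5 higher. The other 15 members, which are assembly factors, isoforms and other factors, were split, with 5 lower and 6 higher.

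**Figure D2:**
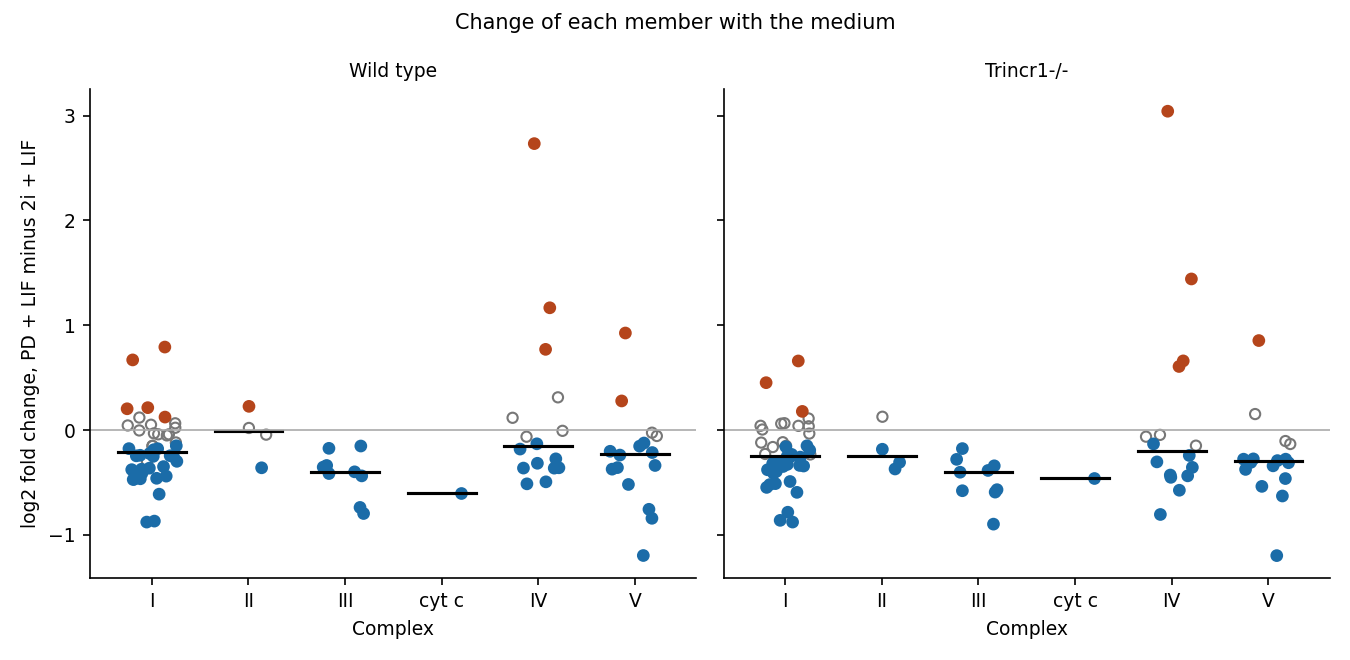
Log2 fold change of each member between media (PD + LIF minus 2i + LIF, on log2(FPKM + 1)) by complex, in wild type (left) and Trincr1-/- (right); filled points passed an adjusted p of 0.05 (blue lower, red higher), open points did not, and bars are medians. All points of complex III lie below 0 in both panels, and the highest point, Ndufa4l2, lies at 2.73 in wild type and 3.04 in Trincr1-/-.

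Complex I, the NADH dehydrogenase, had 25 of 44 members lower and 5 higher in wild type, and 27 lower and 3 higher in Trincr1-/- ESCs. All 7 core subunits of the list were lower in wild type, and 6 of 7 in Trincr1-/-. Ndufs8, which carries iron-sulfur clusters near the ubiquinone site, stood at 42.9 and 42.8 FPKM in wild type in 2i + LIF and at 29.5 and 26.03 in PD + LIF, and at 44.1 and 44.3 against 23.5 and 23.7 FPKM in Trincr1-/-. No PD + LIF sample reached a 2i + LIF sample, and the log2 change was -0.61 in wild type and -0.88 in Trincr1-/-. Ndufs7, the core subunit that did not pass in Trincr1-/-, stood there at 73.0 and 67.8 against 71.7 and 69.5 FPKM, with overlapping groups.

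Among accessory subunits of complex I, Ndufa5 fell most. It stood at 79.4 and 94.6 FPKM in wild type in 2i + LIF, 51.6 and 42.8 in PD + LIF, and in Trincr1-/- at 86.3 and 83.2 against 47.8 and 49.7 FPKM. The groups of each genotype were apart, with log2 changes of -0.87 (SE 0.105) and -0.78 (SE 0.105). In contrast, Ndufa6, Ndufa7 and Ndufa13 rose in wild type, by 0.20, 0.12 and 0.21 on the log2 scale, and did not pass in Trincr1-/-, at 0.04, 0.04 and 0.06. Whether these changes differed between genotypes was tested as the interaction below and did not pass. Assembly factors went both ways. Ndufaf4 stood at 20.3 and 21.0 FPKM against 9.85 and 11.8 in wild type and 20.1 and 20.9 against 10.3 and 11.4 in Trincr1-/-, while Ndufaf7, a mitochondrial methyltransferase, stood at 5.89 and 7.62 against 11.8 and 13.0, and at 7.06 and 6.35 against 11.2 and 11.1 FPKM. Ndufaf3 rose with it, by 0.67 in wild type and 0.45 in Trincr1-/-.

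Complex II, the succinate dehydrogenase that also serves the citric acid cycle, moved least in wild type. Sdhd, a membrane anchor, fell from 91.8 and 99.6 to 71.6 and 77.1 FPKM, and Sdhc, the other anchor, rose from 72.1 and 68.1 to 84.5 and 79.8 FPKM. The flavoprotein Sdha stood at 150 and 148 against 144 and 145 FPKM, and the iron-sulfur subunit Sdhb at 82.8 and 92.5 against 86.2 and 91.3 FPKM, and neither passed, although Sdha was at +0.15 and passed under quantile normalization. In Trincr1-/- ESCs, Sdha, Sdhb and Sdhd were lower in PD + LIF (log2 changes of -0.31, -0.18 and -0.37), and Sdhc did not pass at +0.13.

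Complex III, ubiquinol-cytochrome c reductase, was the only complex with all its members lower in both genotypes, with 9 of 9 in each, except that under quantile normalization Uqcrc2 was at +0.02 in wild type. Uqcrb, which binds near the ubiquinone site, stood at 326 and 331 FPKM in wild type in 2i + LIF, 197 and 197 in PD + LIF, and at 357 and 329 against 180 and 187 FPKM in Trincr1-/-. Its log2 change was -0.74 (SE 0.046) in wild type and -0.90 (SE 0.046) in Trincr1-/-. Uqcrq fell by 0.80 and 0.57 on the log2 scale. Cyc1, the cytochrome that hands electrons to cytochrome c, stood at 165 and 169 against 127 and 138 FPKM in wild type and at 155 and 159 against 121 and 117 FPKM in Trincr1-/-. The smallest falls of the complex were those of Uqcrc2 and Uqcrfs1, of 0.15 and 0.17 in wild type. Cytochrome c itself (Cycs), which also triggers apoptosis when released, stood at 101 and 93.0 FPKM against 61.9 and 65.4 in wild type, and at 95.1 and 102 against 71.8 and 70.9 FPKM in Trincr1-/-. The PD + LIF samples of Cycs lay below the 2i + LIF samples in both genotypes, with log2 changes of -0.60 and -0.46.

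Complex IV, cytochrome c oxidase, divided by kind of subunit. Of its 10 general subunits, 8 were lower in each genotype and 0 were higher. Cox6b1, which faces the intermembrane space, stood at 412 and 436 FPKM against 298 and 303 in wild type, and at 432 and 472 against 305 and 301 FPKM in Trincr1-/-. Cox5b did not pass, at 313 and 309 against 274 and 323 FPKM in wild type, with overlapping groups. Cox7b2, a paralog of Cox7b, was low throughout, from 1.58 to 3.54 FPKM, and its groups overlapped in wild type.

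The rises in complex IV were in isoforms restricted to some tissues or regulated by oxygen, and in Cox7a2l. Ndufa4l2, a paralog of the complex IV subunit Ndufa4 and a known target of hypoxia-inducible factor, stood at 0.778 and 1.01 FPKM in wild type in 2i + LIF and at 10.6 and 12.6 in PD + LIF, and at 1.32 and 1.18 against 17.6 and 17.4 FPKM in Trincr1-/-. Its PD + LIF mean was 13.0 times (wild type) and 14 times (Trincr1-/-) the 2i + LIF mean, while Ndufa4 fell from 328 and 330 to 262 and 250 FPKM in wild type. Even so, Ndufa4l2 made up 4.34% of the FPKM of the pair in wild type in PD + LIF and 6.53% in Trincr1-/-, against 0.270% and 0.388% in 2i + LIF. Cox4i2, the oxygen-regulated form of subunit 4, stood at 0.162 and 0.163 FPKM in wild type in 2i + LIF, 0 and 0.191 in Trincr1-/- in 2i + LIF, 0.561 and 0.334 in wild type in PD + LIF, and 1.504 and 2.51 in Trincr1-/- in PD + LIF. Between media its log2 change was 1.44 in Trincr1-/-, which passed, and 0.31 in wild type, which did not, the interaction did not pass, and its levels in 2i + LIF were worth a few fragments at most.

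Cox6b2, a form of subunit 6b best known from testis, rose from 80.9 and 75.8 to 165 and 190 FPKM in wild type and from 80.5 and 87.0 to 133 and 133 FPKM in Trincr1-/-. It made up 15.6% of the FPKM of Cox6b1 and Cox6b2 in 2i + LIF in both genotypes, and 37.1% ± 2.05 (SD, n = 2) in wild type and 30.5% ± 0.214 (SD, n = 2) in Trincr1-/- in PD + LIF. Cox7a2l, a relative of the Cox7a subunits that joins complexes III and IV into supercomplexes, rose from 76.6 and 70.1 to 125 and 127 FPKM in wild type and from 69.8 and 67.5 to 102 and 108 in Trincr1-/-. Cox7a1, the heart and muscle form, went the other way, from 57.1 and 57.4 to 39.2 and 40.4 FPKM in wild type and from 48.7 and 48.7 to 29.9 and 25.2 in Trincr1-/-. Cox7a2, the general form, fell by 0.36 and 0.30 on the log2 scale. In 2i + LIF Cox7a2 made up 50.4% of the FPKM of these 3 genes in wild type and Cox7a2l 27.9%, and in PD + LIF the shares were 38.3% and 46.9%. Cox6a1 made up over 99.9% of the FPKM of Cox6a1 and Cox6a2 in every sample, and Cox8a that of Cox8a, Cox8b and Cox8c.

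**Figure D3:**
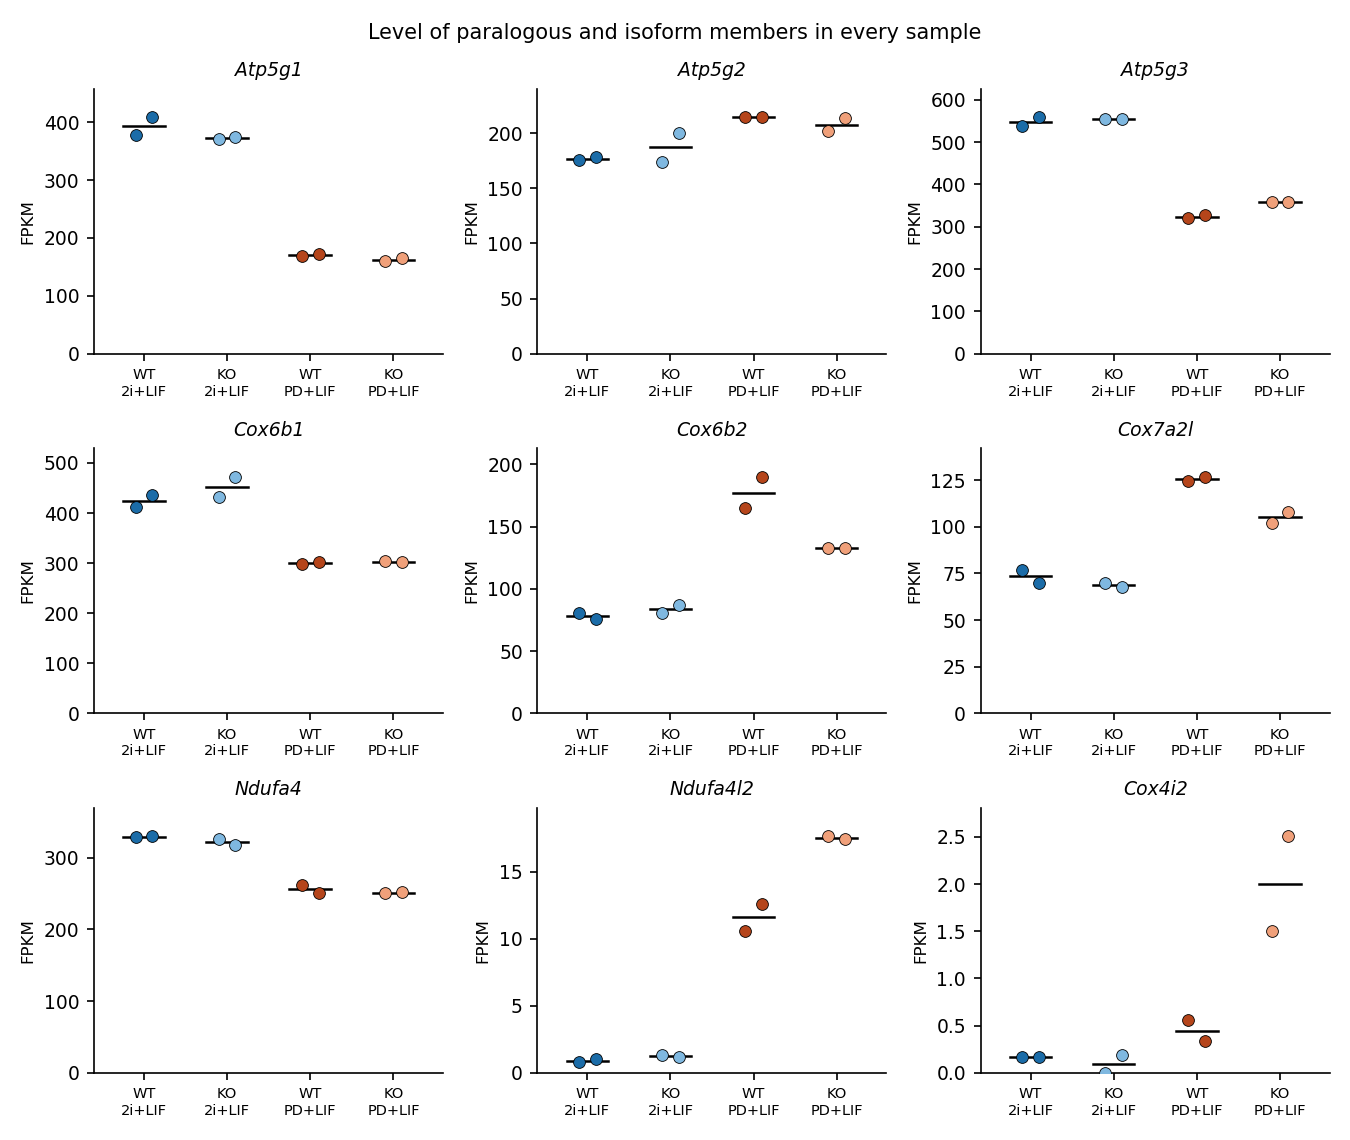
FPKM (y axis, from 0, scaled per gene) of 9 members in every sample, for wild type (WT) and Trincr1-/- (KO) in each medium; points are samples and bars are means of 2. Atp5g1 and Atp5g3 stood lower and Cox6b2, Cox7a2l and Ndufa4l2 higher in every PD + LIF sample than in any 2i + LIF sample, and Cox4i2 was highest at 1.504 and 2.51 FPKM in Trincr1-/- in PD + LIF.

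Complex V held the largest fall of any member, in the ring of c subunits that turns as protons pass. The ring is made from 3 genes, Atp5g1, Atp5g2 and Atp5g3, whose mature proteins are the same and whose import peptides differ. The windows before their RefSeq start sites, shown above, differ too. Atp5g1 stood at 378 and 408 FPKM in wild type in 2i + LIF and at 169 and 172 in PD + LIF, and at 371 and 375 against 159 and 165 FPKM in Trincr1-/-. The groups were far apart, with a log2 change of -1.20 (SE 0.0448) in each genotype. Atp5g3 stood at 538 and 558 against 321 and 328 FPKM in wild type, and at 554 and 555 against 358 and 358 in Trincr1-/-. Atp5g2 stood at 175 and 178 against 214 and 214 FPKM in wild type, a rise of 0.28 (SE 0.0649), and at 174 and 200 against 202 and 213 FPKM in Trincr1-/-, which did not pass. Atp5g2 made up 15.8% of the c subunit FPKM in wild type in 2i + LIF and 30.2% in PD + LIF, and Atp5g1 35.1% and 24.1%. The sum of the 3 genes was 1118 FPKM in 2i + LIF and 709 in PD + LIF in wild type, and 1115 and 728 FPKM in Trincr1-/-.

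Other subunits of the membrane part and stalks of ATP synthase fell too, so that 9 of 10 were lower in each genotype. Atp5k, a small subunit tied to the dimer of the enzyme, stood at 317 and 329 against 174 and 186 FPKM in wild type and at 268 and 291 against 198 and 207 FPKM in Trincr1-/-. The F1 head moved less. Atp5b fell from 1499 and 1559 to 1302 and 1354 FPKM in wild type, a log2 change of -0.20, and Atp5a1, the alpha subunit, by 0.15. Atp5d and Atp5e, the delta and epsilon subunits, did not pass in either genotype. Under quantile normalization the wild-type changes of Atp5a1, Atp5c1, Cox5a and Ndufb8 were at or above 0 (0.01, 0.03, 0.03 and 0.06) and did not pass, as was that of Cox7c in Trincr1-/- (0.02). Atp5s, a factor B protein, rose from 2.15 and 2.08 to 4.94 and 4.90 FPKM in wild type and from 2.00 and 1.23 to 3.82 and 3.53 FPKM in Trincr1-/-.

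Next, the genotypes were compared in 2i + LIF. In limma 0 of 90 members passed, where 1.21% of all tested genes passed in either direction. At an unadjusted p under 0.05 there were 14 members (15.6%), near the 14.6% of all tested genes, and the smallest adjusted p of a member was 0.143. The summed level of all members in Trincr1-/- was 98.7% of that in wild type, and that of each complex lay between 98.2% for complex I and 101.5% for cytochrome c. The 95% interval of the log2 change lay within -0.5 and 0.5 for 85 members, and 82 had a change smaller than 0.2. The most negative change was that of the assembly factor Ndufaf1, at 20.9 and 20.6 FPKM against 18.7 and 14.7, and that of Cox7a1 was -0.23, at 57.1 and 57.4 against 48.7 and 48.7 FPKM with an adjusted p that did not pass.

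In PD + LIF, 15 members were lower and 3 higher in Trincr1-/- than in wild type, or 16.7% and 3.33% of the members, where 5.77% of all tested genes were lower and 6.29% higher. Among the 1679 protein-coding genes with a mean over 50 FPKM, 10.5% were lower and 14.4% higher. Of the 67 members at that level, 20.9% were lower and 1.49% higher. The summed level in Trincr1-/- was 94.5% of that in wild type, with complex II at 87.9%, complex IV at 92.0%, complex I at 94.0%, complex III at 96.4%, complex V at 96.6% and cytochrome c at 112%. The falls were small, of 0.16 to 0.52 on the log2 scale, and none reached 1.5-fold. Each rests on 2 samples per group, and without any 1 of the 4 PD + LIF samples between 2 and 3 members passed. When only the 4 PD + LIF samples were fitted, 1 member passed.

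Complex IV held 6 of the 15 lower members and 2 of the 3 higher ones. Cox5a, a subunit on the matrix side, stood at 355 and 351 FPKM in wild type and 289 and 290 in Trincr1-/- in PD + LIF. The groups were apart by more than their spread (log2 change -0.29, SE 0.0338, limma adjusted p = 0.00458), whereas in 2i + LIF the levels were 380 and 395 against 387 and 395 FPKM. Cox7a1 was the largest fall, at 39.2 and 40.4 against 29.9 and 25.2 FPKM (log2 change -0.52, SE 0.0766). Cox6b2 stood at 165 and 190 against 133 and 133 FPKM, a log2 change of -0.41. Cox7a2l, Cox8a and Cox6a1 were lower by 0.26, 0.20 and 0.19.

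In complex II, both catalytic subunits were lower in Trincr1-/-. Sdha stood at 144 and 145 against 124 and 123 FPKM and Sdhb at 86.2 and 91.3 against 72.7 and 74.2 FPKM. The anchors Sdhc and Sdhd did not pass, at log2 changes of -0.12 and -0.07. In complex I, Ndufa6, Ndufa7, Ndufa13 and Ndufb5 were lower by 0.16 to 0.27, and 0 of 7 core subunits passed. Uqcrc2 in complex III and Atp5c1 and Atp5a1 of the F1 head in complex V were lower by 0.19, 0.22 and 0.17. Cycs did not pass, at 61.9 and 65.4 against 71.8 and 70.9 FPKM, although both Trincr1-/- samples were above both wild-type samples.

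The 3 higher members were Cox4i2, Ndufa4l2 and Atp5g3. Ndufa4l2 stood at 10.6 and 12.6 FPKM in wild type and 17.6 and 17.4 in Trincr1-/-, so that the groups were apart, with a log2 change of 0.56 (SE 0.119). The change of Cox4i2 was 1.04 (SE 0.189), from 0.561 and 0.334 to 1.504 and 2.51 FPKM, with few fragments behind the wild-type levels. With a pseudocount of 0.1 FPKM this call was lost (limma adjusted p = 0.0774). Atp5g3 stood at 321 and 328 against 358 and 358 FPKM, a change of 0.14.

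**Figure D4:**
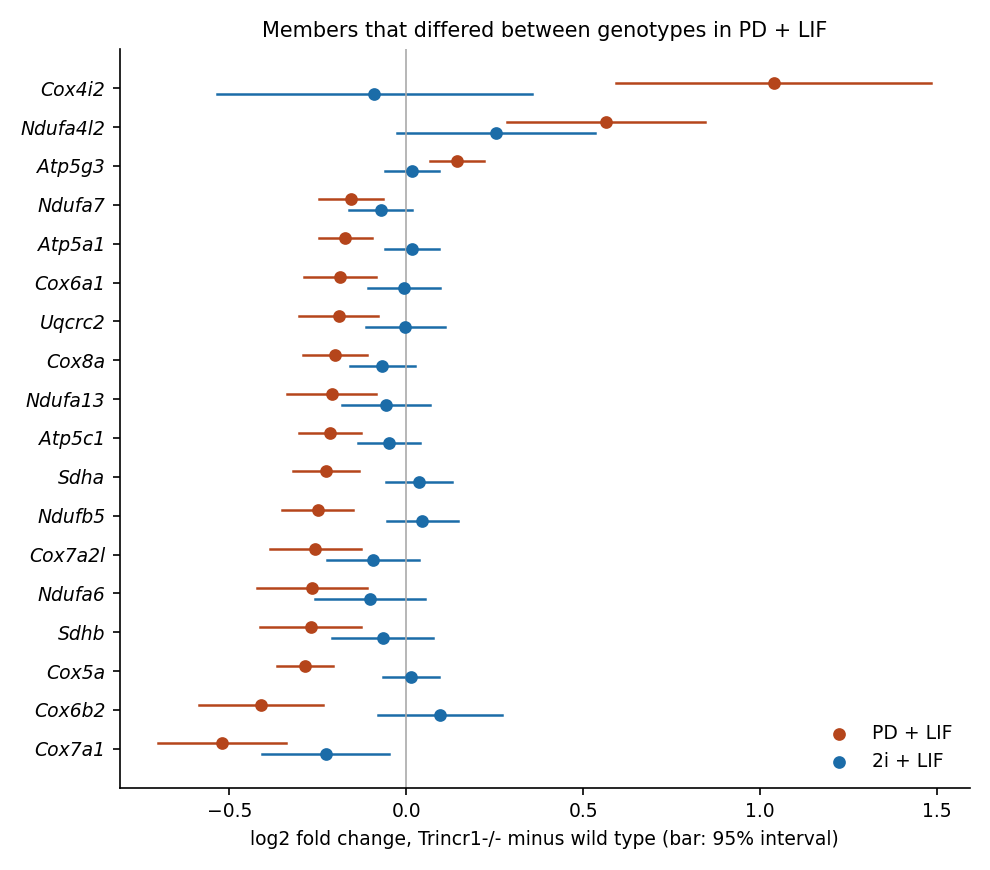
Log2 fold change between genotypes (Trincr1-/- minus wild type, on log2(FPKM + 1)) of the 18 members that passed in PD + LIF, in PD + LIF (red) and in 2i + LIF (blue); bars are 95% intervals from limma. In PD + LIF 15 lie below 0 and 3 above, while in 2i + LIF 0 of these members passed after adjustment.

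Whether the genotype difference itself changed with the medium was tested as an interaction. In limma 1 member, Cox5a, passed, where 1.81% of all tested genes passed in either direction, and 24 members (26.7%) had an unadjusted p under 0.05, against 19.0% of all tested genes. The call of Cox5a was lost when any 1 of the 8 samples was left out, with a replicate block, without the variance trend and without the filter on low values. The genotype change of Cox5a was lower in PD + LIF than in 2i + LIF by 0.298 on the log2 scale (SE 0.0478, 95% interval -0.41 to -0.19, adjusted p = 0.0368). The next members by p were Atp5k at +0.38, Ndufb5 at -0.30, Cox6b2 at -0.51, Sdha at -0.26 and Cox4i2 at +1.13, and none of these passed. A comparison of genotypes in 1 medium and the interaction share samples, so they are not independent.

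The 13 subunits made from mitochondrial DNA, which join the nuclear-encoded ones in complexes I, III, IV and V, were compared in the same way. Their summed level was 12335 and 11968 FPKM in wild type in PD + LIF against 14591 and 13890 in 2i + LIF, and 12012 and 12224 against 14545 and 13621 FPKM in Trincr1-/-. In wild type 6 of 13 were lower and 2 higher in PD + LIF, where 21.3% of all tested genes were lower and 30.9% higher. In Trincr1-/- 8 were lower and 1 higher, where the shares of all tested genes were 20.3% and 29.6%. In wild type mt-Nd1 of complex I fell by 0.77 and mt-Cytb of complex III by 0.45 on the log2 scale. The complex IV subunits mt-Co1, at 4608 and 4399 against 5153 and 5043 FPKM, and mt-Co2, listed far lower at 17.0 and 17.01 against 21.8 and 22.1 FPKM, rose. Also listed far lower, by wild-type means in 2i + LIF, were mt-Nd3 at 7.52, mt-Nd4l at 5.2 and mt-Co3 at 12.3 FPKM. The same held for mt-Atp6 at 17.6 and mt-Atp8 at 55.75 FPKM. Why mt-Co2 and these genes were listed so low was not tested, so their calls are uncertain. Between genotypes 0 passed in 2i + LIF and 2 passed in PD + LIF, with mt-Cytb higher by 0.20 and mt-Co1 lower by 0.19.

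Other genes around the chain were taken from lists. Over all tested genes, 21.3% were lower and 30.9% higher in PD + LIF in wild type, and 20.3% and 29.6% in Trincr1-/-. A count near these shares is no result about a list. Of 77 mitochondrial ribosomal proteins, which translate the mtDNA-encoded subunits, 45 were lower and 3 higher in PD + LIF in wild type and 43 and 5 in Trincr1-/-, with a median log2 change of -0.29 in wild type. Of 36 further assembly factors 11 were lower and 8 higher in wild type and 10 and 4 in Trincr1-/-. Of 13 citric acid cycle genes 5 were lower and 2 higher in wild type and 7 and 2 in Trincr1-/-, among them Suclg2 at +0.45 and Suclg1 at -0.38 in wild type. Of 10 coenzyme Q synthesis genes 4 were lower and 4 higher in wild type and 3 and 1 in Trincr1-/-. Pdss1, which makes the tail of ubiquinone, stood at 25.1 and 22.1 against 7.54 and 6.72 FPKM in wild type. Of 7 further genes of ATP synthase and its surroundings that the symbols do not cover, 3 were lower and 4 higher in wild type and 4 and 3 in Trincr1-/-. Usmg5, 2010107E04Rik and Slc25a3 were lower in both genotypes. Their log2 changes were -0.48, -0.56 and -0.45 in wild type and -0.195, -0.38 and -0.39 in Trincr1-/-. Atpif1, which inhibits the reverse reaction of ATP synthase, rose from 302 and 287 to 400 and 460 FPKM, and Ucp2, an uncoupling protein relative, by 0.71 in wild type.

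Regulators of the chain were measured as well, and the shares of all tested genes given for the lists above apply to these counts between media too. Of 14 tested regulators of mitochondrial biogenesis, 5 were lower and 2 higher in PD + LIF in wild type and 4 and 2 in Trincr1-/-. Nrf1 stood at 58.0 and 54.6 against 42.0 and 45.2 FPKM and Gabpa at 40.2 and 40.6 against 31.5 and 29.8 FPKM in wild type. Tfam, which packs and transcribes mitochondrial DNA, and Yy1 did not pass in either genotype, and Ppargc1a was listed at 0 in every sample. Esrrb, which is in this list and in the ESC markers, stood at 109 and 109 FPKM in wild type and 68.5 and 77.8 in Trincr1-/- in PD + LIF, and at 164 to 178 FPKM in 2i + LIF. Of 12 genes known to be induced by hypoxia, 7 were higher and 1 lower in PD + LIF in wild type and 9 higher and 0 lower in Trincr1-/-, with median log2 changes of 1.17 and 1.00. Bnip3 rose from 6.82 and 7.80 to 71.8 and 78.6 FPKM in wild type, and Slc2a1, a glucose transporter, from 80.8 and 74.8 to 253 and 277 FPKM. Between genotypes in PD + LIF, 3 of the 12 were higher in Trincr1-/- (Slc2a1, Ndrg1 and Ldha) and 1 was lower (Pdk1). Of all tested genes, 6.29% were higher and 5.77% lower in that comparison. Pdk1 was lower in Trincr1-/- in 2i + LIF as well, with a log2 change of -0.78 (limma adjusted p = 0.0393).

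Markers of cell state moved with the medium, and some differed between genotypes in PD + LIF. Their counts stand beside the same shares of all tested genes, given above for each comparison. Of 10 ESC markers 8 were lower and 1 higher in PD + LIF in wild type, and in PD + LIF 6 were lower in Trincr1-/- than in wild type. The 4 primed epiblast markers were all higher in PD + LIF in both genotypes. They summed to 47.8 and 45.6 FPKM in wild type in 2i + LIF, 42.9 and 44.0 in Trincr1-/- in 2i + LIF, 110 and 128 in wild type in PD + LIF, and 196 and 178 in Trincr1-/- in PD + LIF. The 3 neural markers in the table, also all higher in PD + LIF, summed to 6.72 to 8.11 FPKM in 2i + LIF, 27.7 and 30.2 in wild type and 37.5 and 37.9 in Trincr1-/- in PD + LIF. The 5 primitive endoderm markers summed to 0.807 to 1.54 FPKM in 2i + LIF and 4.44 to 6.66 FPKM in PD + LIF, and the 8 feeder markers to 0.556 to 1.35 and 4.15 to 6.40 FPKM. Between genotypes in PD + LIF, 1 of 4 primed markers (Dnmt3b), 1 of 3 neural (Sox1), 1 of 3 tested primitive endoderm (Foxa2) and 1 of 3 tested feeder markers (Col1a1) were higher in Trincr1-/- and the others did not pass. Dnmt3b, at 65.3 and 79.4 against 137 and 122 FPKM, made up most of the difference in the primed sum. The part of these changes in the levels of the members was not tested.

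Finally, the members were looked up among RNAs pulled down with FLAG-TRIM71. The deposited table gives 1 value per transcript for the pulldown and 1 for the input, so the folds have no error and no test, and by the protocol the input was selected on poly-T beads while the pulldown RNA was made into cDNA directly, so that a fold also compares these preparations. Of 87 members with an input above 2 FPKM, 3 (3.45%) had a fold above 3, against 5.10% of 9651 transcripts, and above an input of 50 FPKM the shares were 3.03% and 2.17%. They were Atp5k at 7.44, with 400 FPKM in the scaled pulldown and 53.8 in the input, Ndufs5 at 6.71 and Ndufv3 at 5.30. The median fold was 0.211 over members and 0.0571 over all transcripts above 2 FPKM, and 0.294 against 0.260 above an input of 50 FPKM. In the pulldown, 26 members (29.9%) were listed at 0, Atp5g2, Cox7a1 and Cox6b2 among them, against 46.4% of transcripts, whereas above an input of 50 FPKM 18.2% of members and 12.5% of transcripts were. Complex II had the highest median, 0.592 over 4 members, and complex IV the lowest of the complexes, 0.103 over 13. In PD + LIF against 2i + LIF, the 3 members with a fold above 3 went different ways, as Atp5k and Ndufs5 were lower in both genotypes and Ndufv3 was lower in Trincr1-/- only (-0.32, with 0.00 in wild type, and an interaction that did not pass).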

How the data were processed

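RNA of 8 samples in 4 groups was sequenced. The authors aligned the reads with STAR 2.5.0 and deposited normalized FPKM values from Cufflinks 2.2.1 per gene and sample. Gene coordinates in the table match GRCm38 (76 of 90 members start and end within 1000 bases of RefSeq), while the labels and methods name mm9. For the pulldown the authors deposited 1 FPKM value and 1 scaled FPKM value per transcript and kind of sample, and a fold of enrichment, which was not used. The deposited scaled values, a rescaled score, are in the pulldown 2.25 times the unscaled ones.

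Of 41260 entries, 41204 genes remained after keeping the highest of repeated identifiers. Genes with a mean above 0.2 FPKM were kept. Tests used limma 3.58.1 (R 4.3.3) on log2(FPKM + 1), with a variance trend, the 4 groups fitted jointly (4 residual degrees of freedom), two-sided, with Benjamini-Hochberg adjustment over 15430 genes at 0.05. The fit was tested on simulated data. SE and 95% intervals are those of limma. A fold change on the log2(FPKM + 1) scale understates changes of low genes. Sums and shares carry no test. Calls near a pseudogene are uncertain, since many members have processed copies that could share reads. Members and gene lists were chosen with earlier results of these data known. The genes named are, per comparison, up to 5 largest rises and 5 largest falls among those past the threshold, the highest and lowest member of each complex, Sdha to Sdhd, Cyc1, Cycs, the paralog groups, genes at the filter limit and genes of the lists. Those named beyond the rule, such as Ndufs7, Cox5b and the members singled out by motif or pulldown, were chosen after their values were seen. Tables were handled with Python 3.11.15 and pandas 2.3.3, and plots drawn with matplotlib 3.10.9. The empty-vector pulldown was not analysed here. Alternatives were other pseudocounts and filters, median-ratio scaling, quantile normalization, no variance trend, only the groups compared, a replicate block, a minimum fold and leaving out each sample.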

Additional observations from a re-analysis of the deposited data

Results flagged for a closer look

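Cox5a, a complex IV subunit, is listed because its genotype difference was not the same in both media. Its change in PD + LIF minus that in 2i + LIF was -0.298 on the log2 scale (limma, SE 0.0478, adjusted p = 0.0368), with both Trincr1-/- samples below both wild-type samples in PD + LIF and overlapping groups in 2i + LIF. Without any 1 of the 8 samples, 0 members passed this test, and 0 passed with the replicate block, without the variance trend or without the filter on low values. With 2 samples per group, no single sample could be set apart from its group.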

How the results depend on the processing

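In 2i + LIF, 0 members differed between genotypes under any alternative. The medium comparisons gave 52 to 70 calls in wild type and 59 to 72 in Trincr1-/- under the other settings, against 68 and 69, except that a change of at least 1.5-fold (ratio of mean FPKM, not of FPKM + 1) was met by 15 in each. Leaving out 1 sample gave 54 to 67 in wild type and 56 to 67 in Trincr1-/-. Between genotypes in PD + LIF, 18 calls became 5 without the variance trend, 1 with only the 2 groups compared and 2 at 1.5-fold or more, and leaving out 1 sample gave 2 to 15: 3 without the first or second wild-type PD + LIF sample, 3 without the first Trincr1-/- PD + LIF sample and 2 without the second. The interaction count of 1 became 0 without the filter on low values, without the variance trend and with the replicate block, 2 with a mean above 1 FPKM and 3 under quantile normalization, and leaving out 1 sample gave 0 to 0. The cause of these shifts was not tested. Samples with the same replicate number showed no shared deviation over all genes (correlations from -0.06 to 0.02 over 12063 genes). Whether they share a culture or a batch was not tested. With the replicate block the calls were 0, 12, 67, 65 and 0 for genotype in 2i + LIF, genotype in PD + LIF, medium in wild type, medium in Trincr1-/- and the interaction. The summed level of all members in PD + LIF was 80.0% (wild type) and 77.1% (Trincr1-/-) of that in 2i + LIF after median-ratio scaling, an alternative chosen after seeing the data, against 83.7% and 80.2%. The median pulldown fold was 0.0943 with unscaled values and 0.239 with 1 FPKM added. Of 29 largest changes of named members, 21 passed under all alternatives that gave a value and 0 reversed. Levels under about 0.3 FPKM rest on a few fragments.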
